A study of Homo sapiens with 6 samples.

Results

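Hypoxia genes were examined in T24 cells, a line grown from a human bladder carcinoma. The members were 10 genes chosen by name, HIF1A, EPAS1, ARNT, EGLN1, EGLN3, CA9, VEGFA, ADM, BNIP3 and NDRG1, and all 10 were found among the 78932 genes of the deposited count table. Poly(A) RNA was sequenced from 3 cultures that received the control siRNA siNC and from 3 that received siRNA against TRIM28 (siTRIM28). All 6 cultures carried a transfected duplex, were of 1 cell line and were labelled as 1 batch, and the labels give neither an oxygen level nor the time from transfection to harvest. The sources used here do not say which of the TRIM28 siRNAs of the study these cultures received. The labels call the replicates biological, without saying how separate the cultures were, so p-values measure the spread between these libraries.

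Cells read their oxygen supply through hypoxia-inducible factors (HIFs). HIF1A and EPAS1 encode alternative alpha subunits that pair with the constant subunit encoded by ARNT and bind a short core, ACGTG or GCGTG, in hypoxia response elements. When oxygen is present, prolyl hydroxylases such as EGLN1 and EGLN3 mark the alpha subunits, VHL recognises the mark and the proteasome destroys them, so that regulation acts chiefly on protein, which RNA-seq does not show. Among the HIF targets, CA9 encodes a surface carbonic anhydrase that buffers pH, VEGFA an angiogenic ligand, ADM the vasoactive peptide adrenomedullin, BNIP3 a mitochondrial mitophagy receptor and NDRG1 a stress-induced cytoplasmic protein. TRIM28, a transcriptional corepressor and SUMO ligase, has also been described as a partner of HIF1A at hypoxia-induced genes.

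The RefSeq promoter table held a window for 8 of the 10 members, from 250 bases before the start of the gene to 50 after it. The sequences are shown because the core of the response element links the HIF subunits to their targets. The core was present on 1 strand or the other in 6 of these 8 windows (75.0%), against 63.3% of 11033 windows of tested genes and 48.4% of all 27305 windows in the table. ACGTG, the stricter form, was present in 3 of the 8, against 26.9% of the windows of tested genes. Those were BNIP3, EGLN1 and CA9, printed below with EPAS1, whose window held GCGTG only. Each run gives the 250 bases before the start on the strand of the gene, 5′ to 3′, from GRCh38.p14, and capitals mark the cores, which read CACGT or CACGC where they lie on the opposite strand. The runs are chr10:131981924-131982173 on the minus strand for BNIP3, chr1:231422288-231422537 on the minus strand for EGLN1, chr9:35673678-35673927 on the plus strand for CA9 and chr2:46297157-46297406 on the plus strand for EPAS1.
BNIP3: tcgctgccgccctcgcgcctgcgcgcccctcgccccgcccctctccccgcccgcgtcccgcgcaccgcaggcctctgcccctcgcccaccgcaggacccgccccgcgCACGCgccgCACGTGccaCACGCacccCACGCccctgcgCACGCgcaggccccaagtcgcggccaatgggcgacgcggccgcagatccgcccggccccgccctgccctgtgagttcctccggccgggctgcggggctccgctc
EGLN1: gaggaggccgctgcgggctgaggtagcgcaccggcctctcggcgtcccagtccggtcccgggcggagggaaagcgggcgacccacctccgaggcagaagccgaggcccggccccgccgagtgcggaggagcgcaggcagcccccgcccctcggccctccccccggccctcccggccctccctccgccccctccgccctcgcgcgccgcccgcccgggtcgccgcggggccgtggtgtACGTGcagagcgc
CA9: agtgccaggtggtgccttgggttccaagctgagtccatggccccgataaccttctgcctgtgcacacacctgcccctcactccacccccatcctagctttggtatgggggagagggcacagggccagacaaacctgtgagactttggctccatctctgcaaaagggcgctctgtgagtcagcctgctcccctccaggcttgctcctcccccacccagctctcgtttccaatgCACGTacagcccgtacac
EPAS1: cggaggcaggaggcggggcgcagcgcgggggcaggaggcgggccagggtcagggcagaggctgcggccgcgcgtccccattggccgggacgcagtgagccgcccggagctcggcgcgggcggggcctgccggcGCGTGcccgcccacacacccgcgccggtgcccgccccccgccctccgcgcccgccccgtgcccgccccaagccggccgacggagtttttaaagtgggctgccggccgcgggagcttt
BNIP3 had 6 cores, the most of the 8 windows, from base -143 to base -104, counted from the start of the gene. In BNIP3 both ACGTG matches lay on opposite strands of the same CACGTG, a palindrome that is also the E-box read by MYC and other factors and that 10.0% of tested promoters held. EGLN1 had its single core at base -13, CA9 at -18 on the opposite strand and EPAS1 at -117, while the windows of ARNT and EGLN3 held none. The RefSeq starts of EPAS1, BNIP3 and EGLN3 lie inside the longer spans that the deposited table gives these genes. The distance is largest for EGLN3, on the minus strand, whose window ends at 33951324 and whose span ends at 34462774. A match describes letters in a window and is not a measured binding site.

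TRIM28 was checked first. It had 1382 to 1419 counts in siNC and 96 to 130 in siTRIM28, or 104 ± 4.09 against 8.87 ± 0.658 CPM (counts scaled by TMM to a common library size, here and below as mean ± SD of 3 libraries). The log2 fold change, siTRIM28 against siNC as everywhere below, was -3.54 by edgeR (adjusted p = 1.03e-10). Total counts lay between 11712623 and 14018052. Replicates were unequally close. The chi-square per degree of freedom, which sampling noise alone puts near 1, was 1.08 for siNC replicates 1 and 2 and 1.22 for siTRIM28 replicates 2 and 3. The other pairs had 4.17 to 6.25. Sampling noise did not cover the difference within either close pair (chi-square test over genes, p = 2.84e-14 and 2.67e-96). Over 20704 and 20698 genes this test picks up small differences, so it does not show how separate the cultures of a close pair were. KRT8 and KRT18, keratins of simple epithelium, were expressed, whereas 6 of 10 epithelial and urothelial markers lay under 1 CPM in all libraries, among them EPCAM, CDH1 and the urothelial genes UPK2, UPK3A and GATA3. The summed level of these 10 was 190.6 to 197.7 CPM in siNC and 209 to 215.6 in siTRIM28, and that of 7 markers of other cell types, nearly all of it CD68, was 346.7 to 351 and 340.9 to 365.4, with 5 of the 7 under 1 CPM. COL1A1, a fibroblast collagen, had 0.706 to 1.22 CPM in siNC and 2.57 to 3.80 in siTRIM28, while PTPRC, DCN and COL3A1 had at most 4 counts in any library. The part of these markers in the results below was not tested.

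After TRIM28 silencing, BNIP3, VEGFA, NDRG1, EGLN1 and HIF1A rose and EPAS1 fell. ARNT, CA9 and ADM did not pass the threshold, and EGLN3 had too few counts to be tested. Of the 9 members tested, 6 were called (adjusted p under 0.05 in edgeR's quasi-likelihood test over 18474 genes), where 41.8% of all genes tested were called. The 5 that rose stand beside 21.3% of tested genes that rose, and the single fall beside 20.5% that fell. All 9 had at least 10 counts in every library, so none entered through 1 group only. Among genes with a mean of at least 50 counts, which 8 of the 9 reached, 50.2% were called. The groups did not overlap in 6 of the 9, the same 6 that were called, where 52% of all tested genes had groups without overlap. The median log2 fold change of the 9 was 0.38, against 0.02 over all genes tested.

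**Figure D1:**
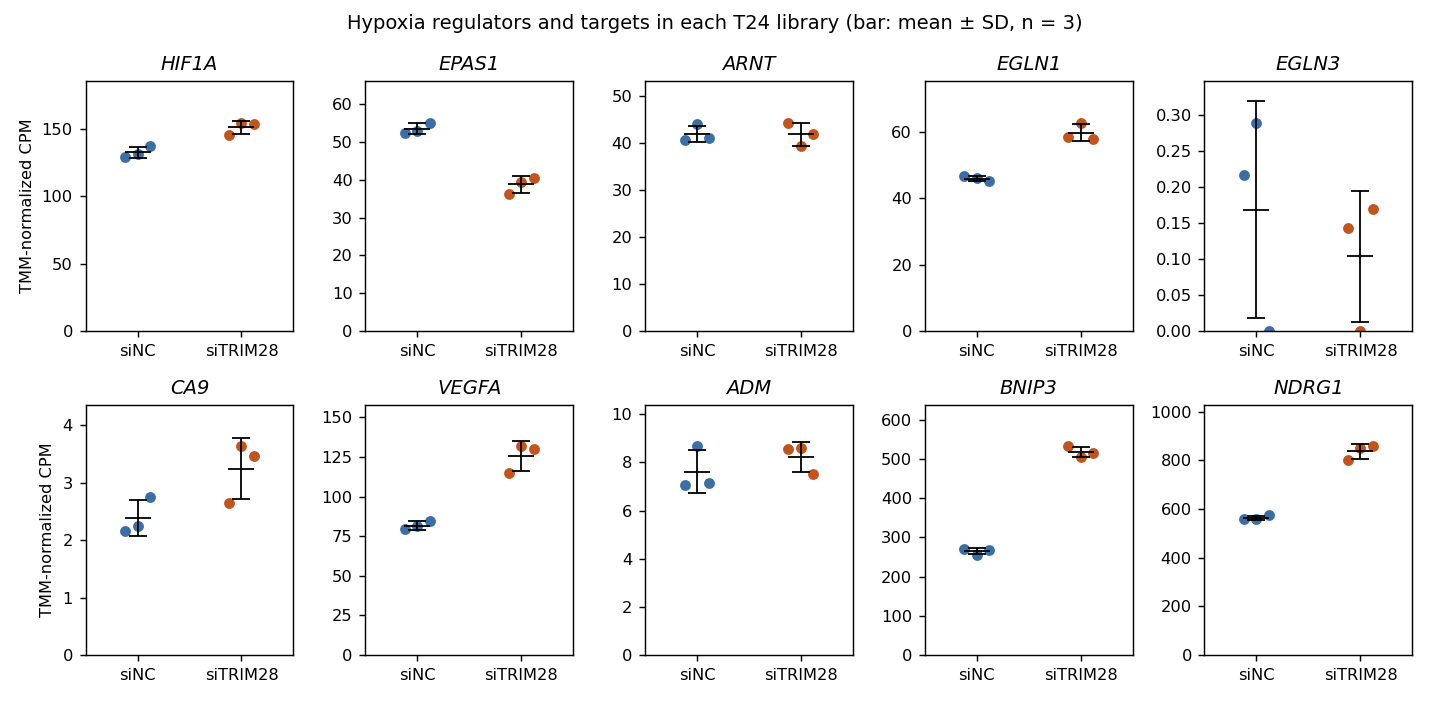
TMM-normalized CPM of the 10 members (vertical axes, each from 0) in every siNC and siTRIM28 library, with 1 point per library and bars for mean ± SD (n = 3). In BNIP3, NDRG1, VEGFA, EGLN1 and HIF1A all siTRIM28 points lie above all siNC points, in EPAS1 all lie below, and in ARNT, EGLN3, CA9 and ADM the groups overlap.

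Both HIF alpha subunits changed, in opposite directions. HIF1A (ENSG00000100644, chromosome 14, 61695513 to 61748258, plus strand, GRCh38) had 129, 131 and 137 CPM in the siNC libraries and 145, 154 and 153 in the siTRIM28 libraries. Every siTRIM28 library lay above every siNC library, but the step was small, a 1.14-fold rise (log2 fold change 0.19, SE 0.0453, adjusted p = 0.00556, edgeR). This call was lost with the close pairs summed (log2 fold change 0.16, adjusted p = 0.096, edgeR) and without siNC replicate 1 (0.16, adjusted p = 0.0551). EPAS1 (ENSG00000116016, chromosome 2, 46293667 to 46386696, plus strand), which encodes the alpha subunit prominent in vascular and kidney cells, had 52.3, 52.9 and 55.0 CPM in siNC and 36.4, 39.4 and 40.5 in siTRIM28. All siTRIM28 libraries were lower, a 0.725-fold level (log2 fold change -0.46, SE 0.0629, adjusted p = 1.15e-04, edgeR), and the value stayed between -0.50 and -0.42 over all alternatives.

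Per kilobase of gene length, HIF1A stood 3.49, 3.52 and 3.52 times as high as EPAS1 in the siNC libraries and 5.66, 5.55 and 5.35 times in the siTRIM28 libraries. The mean log2 ratio of both subunits moved from 1.81 to 2.46, a difference of 0.65 without overlap of the groups (p = 0.1 in a two-sided exact permutation test, which 3 against 3 libraries cannot go below). ARNT (ENSG00000143437, chromosome 1, 150809713 to 150876599, minus strand), the shared partner, had 40.7, 44.0 and 41.2 CPM in siNC and 44.3, 39.4 and 42.0 in siTRIM28. The ranges overlapped, with a log2 fold change of -0.0008 and a 95% interval of -0.15 to 0.14 (adjusted p = 0.995, edgeR).

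Reads on HIF1A cannot be fully assigned to it. A gene without a symbol (ENSG00000258964) overlaps it on the same strand, with a mean of 704.67 counts in siNC and 592.67 in siTRIM28, and HIF1A-AS3 lies on the other strand with 173.33 and 218.67. The library kit marks strand, but the sources used here do not say whether counting used it. EPAS1 is crossed only by genes with a mean of at most 1.33 counts in either group.

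The oxygen sensors differed mainly in whether they were expressed. EGLN1 (ENSG00000135766, chromosome 1, 231363751 to 231422287, minus strand), the main prolyl hydroxylase acting on HIF1A and itself a HIF target, had 46.5, 46.2 and 45.0 CPM in siNC and 58.5, 62.7 and 57.9 in siTRIM28. The siTRIM28 libraries were all higher, a 1.30-fold rise (log2 fold change 0.38, SE 0.0575, adjusted p = 2.65e-04, edgeR). A same-strand gene without a symbol (ENSG00000287856) spans EGLN1 and had a mean of 407.33 counts in siNC and 502.67 in siTRIM28. EGLN3 (ENSG00000129521, chromosome 14, 33924227 to 34462774, minus strand) had 3, 4 and 0 counts in siNC and 2, 0 and 2 in siTRIM28. A count of 0 allows up to 3 counts in a library, and 5 of the 6 libraries lay at or under that limit, so a difference in EGLN3 was not detectable at this depth. Its annotated span also encloses SPTSSA on the same strand, which had a mean of 367 counts in siNC and 307.33 in siTRIM28.

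Of the targets that act outside the cell or at its surface, VEGFA rose and the other members were not called. VEGFA (ENSG00000112715, chromosome 6, 43770184 to 43784658, plus strand) had 79.3, 81.1 and 84.7 CPM in siNC and 115, 132 and 130 in siTRIM28. The siTRIM28 libraries lay above the siNC libraries, a 1.53-fold rise (log2 fold change 0.62, SE 0.0595, adjusted p = 7.68e-06, edgeR). A short gene on its other strand (ENSG00000272114) had a log2 fold change of 0.90. CA9 (ENSG00000107159, chromosome 9, 35673928 to 35681159, plus strand) was low, with 30, 31 and 35 counts in siNC and 37, 43 and 41 in siTRIM28, or 2.16, 2.24 and 2.74 against 2.64, 3.63 and 3.46 CPM. The groups overlapped by 1 library on each side, and the log2 fold change of 0.44 did not pass (95% interval 0.00 to 0.87 before adjustment, adjusted p = 0.0973, edgeR), although it did without siTRIM28 replicate 1 (0.58, adjusted p = 0.032). CA9 overlaps ARHGEF39 on the other strand, whose log2 fold change was 0.69. ADM (ENSG00000148926, chromosome 11, 10305073 to 10306908, plus strand) had 7.06, 8.67 and 7.13 CPM in siNC and 8.57, 8.61 and 7.52 in siTRIM28, and its interval of -0.16 to 0.38 around a log2 fold change of 0.11 excludes a rise as large as that of VEGFA (adjusted p = 0.503, edgeR). With a library left out the value for ADM lay between 0.05 and 0.21.

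The intracellular targets had the highest levels of the members. BNIP3 showed the largest change of the tested members, whereas NDRG1 changed less than VEGFA. BNIP3 (ENSG00000176171, chromosome 10, 131967684 to 131981965, minus strand) had 270, 256 and 267 CPM in siNC and 532, 507 and 516 in siTRIM28. Its level rose 1.96-fold with a wide gap between the groups (log2 fold change 0.97, SE 0.0399, adjusted p = 1.32e-08, edgeR), and 3.94% of all tested genes had a higher log2 fold change. The table names 45 pseudogenes of BNIP3, none of which had over 45 counts in a library. NDRG1 (ENSG00000104419, chromosome 8, 133237175 to 133302022, minus strand) had 559, 558 and 574 CPM in siNC and 802, 853 and 858 in siTRIM28. The lowest siTRIM28 library was well above the highest siNC library, a 1.48-fold rise (log2 fold change 0.57, SE 0.0384, adjusted p = 4.74e-07, edgeR). A short same-strand gene at its 3′ end (ENSG00000289316) had a mean of 332.33 counts in siNC and 470 in siTRIM28.

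**Figure D2:**
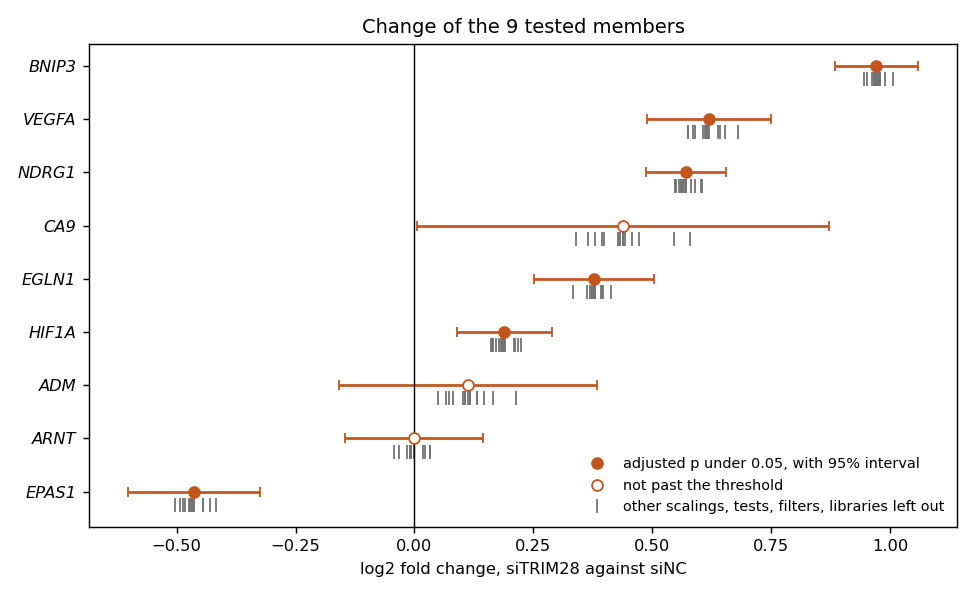
Log2 fold change of the 9 tested members, siTRIM28 against siNC (horizontal axis), with 95% intervals before adjustment for multiple testing, filled where the adjusted p was under 0.05, and grey ticks for each alternative scaling, test, filter or left-out library. BNIP3 lies furthest to the right at 0.97, EPAS1 alone lies clearly to the left at -0.46, and the intervals of ADM and ARNT cross 0.

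Levels of the members spanned a wide range. In siNC, BNIP3 was highest at 65.3 ± 1.86 CPM per kilobase of gene length, followed by NDRG1 at 47.0 ± 0.763, HIF1A at 25.7 ± 0.811, EGLN1 at 8.53 ± 0.146, EPAS1 at 7.32 ± 0.200, ARNT at 6.50 ± 0.277, VEGFA at 5.66 ± 0.188, ADM at 3.28 ± 0.391, CA9 at 1.49 ± 0.198 and EGLN3 at 0.0229 ± 0.0204 (mean ± SD, n = 3). No neighbours in this order overlapped between libraries. In siTRIM28, VEGFA at 8.70 ± 0.651 stood 5th, above ARNT, and EPAS1 at 5.31 ± 0.296 stood 7th, below ARNT, while the other members held their places, again with no overlap between neighbours. These levels divide by the gene length in the deposited table, which gives no definition of it. For ADM that length, 2325 bases, is longer than the span given for the gene. VEGFA, with a length of 14431 bases, had 81.7 CPM in siNC, against 41.9 CPM for ARNT with 6448 bases. The order of the members and the ratio of HIF1A to EPAS1 thus rest on these lengths, whereas changes between the groups do not.

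**Figure D3:**
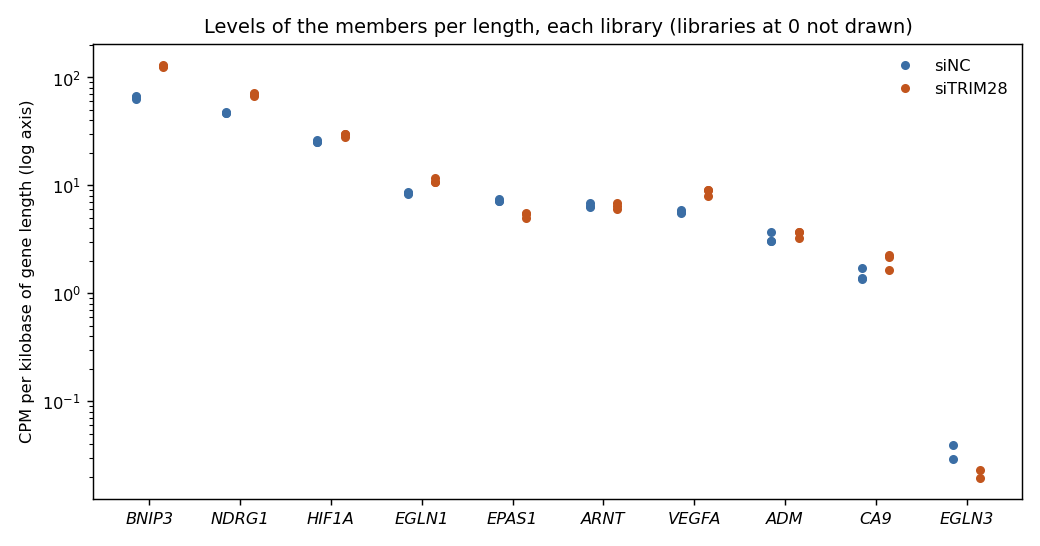
Levels of the members in CPM per kilobase of gene length (vertical log axis), ordered by their mean in siNC, with 1 point per library and libraries at 0 left out. BNIP3, NDRG1 and HIF1A lie highest, EGLN3 lies far below all others, and VEGFA and EPAS1 change places between siNC and siTRIM28.

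The genes most like HIF1A across the 6 libraries were CREBZF, SBNO2 and GOLGA4 (Pearson r of log2 CPM 0.9995, 0.9966 and 0.9964), and those most like EPAS1 were FLNA, TXNDC5 and ANO6 (r = 0.999, 0.9989 and 0.9988). Libraries of 2 groups give such values readily, and 1385 of 11339 genes had an r over 0.9 with HIF1A and 2299 with EPAS1.

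The wider pathway was read from 74 further genes in lists by role, of which 62 had enough counts to be tested. Of these 62, 48 were called (77.4%, against the background of 41.8%), with 38 higher and 10 lower in siTRIM28, and the median log2 fold change was 0.39. In 60 of the 62 every library had at least 10 counts, and 59 had a mean of at least 50 counts. In the target lists 33 of 45 tested genes rose, 8 fell and 4 were not called, with a median of 0.50. Among all tested genes 21.3% rose and 20.5% fell, so the share of falls in these lists was near the background. Of genes with a mean of at least 50 counts, 50.2% were called and 23.9% rose. Falls were thus a larger share of these genes than of all tested genes. Members and lists were chosen with earlier results of these data known, so these shares describe the lists and are not a test.

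Of the 9 genes of HIF hydroxylation and degradation, VHL, SIAH2 and HIF1AN rose, EGLN2 fell and 5 were not called. The share called, 44.4%, was near the 41.8% of all tested genes. VHL, the substrate receptor of the ligase that destroys HIF alpha subunits, rose from 33.6 ± 0.574 to 48.2 ± 3.19 CPM (0.52 as log2 fold change, adjusted p = 6.63e-05, edgeR). HIF1AN, the asparaginyl hydroxylase that blocks recruitment of coactivators, rose from 34.6 ± 1.47 to 43.4 ± 2.85 CPM, and SIAH2, a ligase for prolyl hydroxylases, had a log2 fold change of 0.43. EGLN2, another prolyl hydroxylase, fell from 36.0 ± 1.84 to 26.2 ± 1.22 CPM (-0.46 as log2 fold change, adjusted p = 2.20e-04, edgeR). EGLN1 and EGLN2 thus had changes of opposite sign, while EGLN3 stayed near 0 counts. ELOB, ELOC, CUL2 and RBX1, the other subunits of the VHL ligase, were not called, with log2 fold changes of 0.07, 0.24, -0.01 and -0.26. RBX1 passed without siNC replicate 2 (-0.42, adjusted p = 0.0313, edgeR), and ELOC with no filter beyond 1 count (0.23, adjusted p = 8.57e-04, edgeR). Among cofactors EP300 rose by 0.21 on the log2 scale (adjusted p = 0.0181, edgeR), a call lost in 5 of its 15 alternatives, and CITED2, which competes with HIF1A for EP300, had -0.09 and was not called. HIF3A and ARNT2 had too few counts to be tested.

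Relatives and receptors of VEGFA and ADM were in large part below the count minimum. Of 11, 6 were not tested, namely the receptors FLT1, KDR, CALCRL, RAMP1, RAMP2 and RAMP3. VEGFC, a lymphangiogenic relative of VEGFA, fell (11.6 ± 1.19 to 9.14 ± 0.202 CPM, log2 fold change -0.34, adjusted p = 0.0174, edgeR), a call lost in 3 of its 15 alternatives. PGF, another VEGFA relative, had 5, 8 and 3 counts in siNC and 18, 10 and 16 in siTRIM28. It entered the test only through the siTRIM28 libraries, so its call, 1 of the 38 rises counted above, is not read as a change. The coreceptors NRP1 and NRP2 had log2 fold changes of -0.06 and 0.01.

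Targets that serve glucose use showed 13 rises and 4 falls among 18 genes. Over all tested genes 21.3% rose and 20.5% fell, so the share of falls in this list was near the background. SLC2A1, the basal glucose transporter, rose from 75.5 ± 1.39 to 126 ± 6.63 CPM (0.74 as log2 fold change, adjusted p = 6.05e-07, edgeR). PGK1, a kinase of lower glycolysis, rose from 444 ± 10.9 to 697 ± 31.6 CPM. LDHA, which turns pyruvate into lactate, rose from 1070 ± 10.9 to 1473 ± 123, and PDK1, which inhibits pyruvate dehydrogenase, from 22.8 ± 1.23 to 34.1 ± 2.34. Among genes with a mean of at least 50 counts, the largest rises of this list were those of SLC2A3, a high-affinity glucose transporter, at 1.79, SLC16A3, which exports lactate, at 1.56, PFKFB4 at 1.56 and ENO2 at 1.55. SLC2A3 shares sequence with named pseudogenes, 1 of which reached 287 counts in a library, so its value is uncertain. The falls were PGAM1 from 214 ± 3.18 to 93.1 ± 6.62 CPM (-1.20 as log2 fold change, adjusted p = 2.25e-08, edgeR), PFKL at -0.59, PFKFB3 at -0.40 and ALDOA at -0.22, enzymes of the same pathway.

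**Figure D4:**
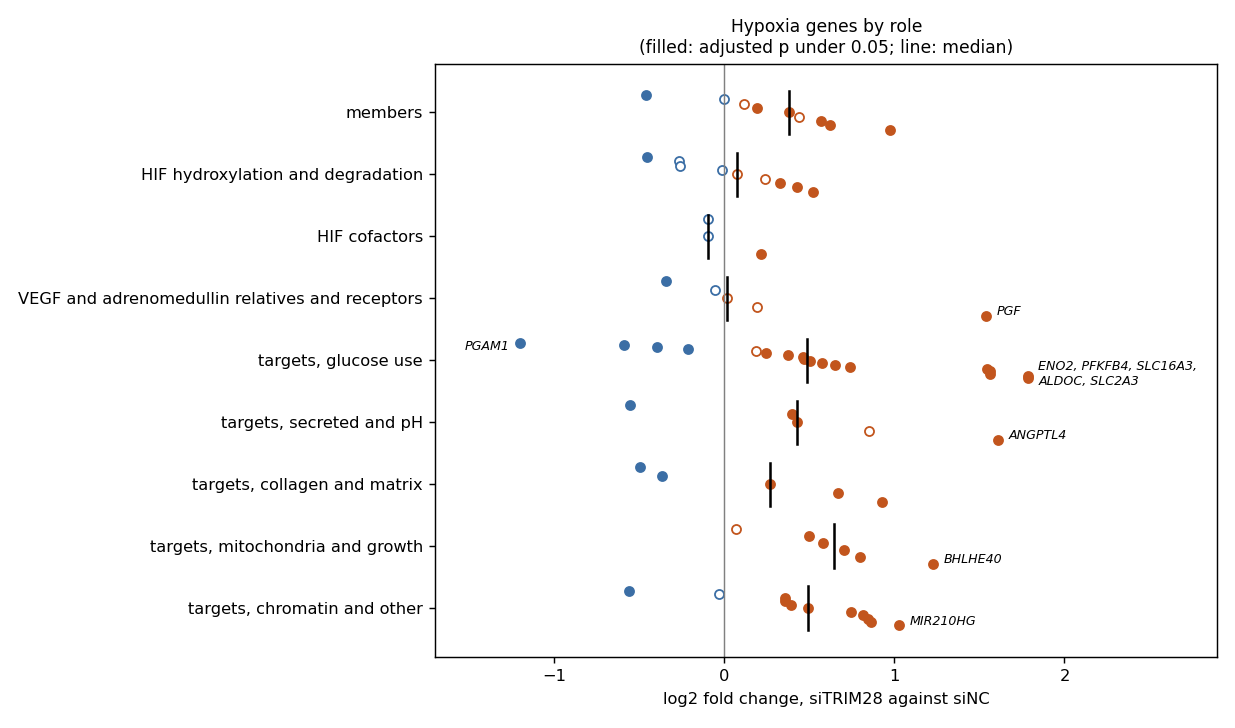
Log2 fold change, siTRIM28 against siNC (horizontal axis), of the 9 tested members and of 62 tested pathway genes by role (rows), with 1 point per gene, orange above 0 and blue below, filled where the adjusted p was under 0.05, and a black line at the median of each row. The 5 target rows have medians from 0.27 to 0.64, whereas the rows for HIF hydroxylation, cofactors and VEGF relatives have medians from -0.09 to 0.07, and PGAM1 is the lowest point at -1.20.

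The remaining target lists differed in their share of falls. The list of secreted and pH genes had 3 rises and 1 fall among 5 tested genes. Collagen and matrix genes had 3 rises and 2 falls among 5. The list of mitochondria and growth had 5 rises and 0 falls among 6, and that of chromatin and other targets 9 and 1 among 11. Over all tested genes 21.3% rose and 20.5% fell. ANGPTL4, a secreted lipase inhibitor, rose from 5.41 ± 0.252 to 16.5 ± 0.476 CPM (1.61 as log2 fold change, adjusted p = 1.24e-07, edgeR), and STC2, a secreted glycoprotein, had a log2 fold change of 0.40. CA12, the surface carbonic anhydrase related to CA9 and far more abundant here, fell from 365 ± 9.49 to 248 ± 8.85 CPM (-0.56 as log2 fold change, adjusted p = 1.12e-06, edgeR). Of the collagen and matrix genes, the prolyl 4-hydroxylase subunits P4HA2 and P4HA1 rose by 0.93 and 0.67 on the log2 scale and PLOD2 by 0.27, while LOXL2 and PLOD1 had falls of -0.49 and -0.37. Beside BNIP3, its paralogue BNIP3L rose from 147 ± 8.79 to 208 ± 8.13 CPM (0.50 as log2 fold change, adjusted p = 1.51e-05, edgeR). DDIT4, an inhibitor of mTOR signalling, rose by 0.70, FAM162A by 0.58, and the repressors BHLHE40 and BHLHE41 by 1.23 and 0.80, and no gene of that list fell. The histone demethylase KDM3A rose from 106.5 ± 3.60 to 194 ± 8.58 CPM (0.86 as log2 fold change, adjusted p = 1.10e-07, edgeR), with MIR210HG, the host transcript of a hypoxia-induced microRNA, at 1.03, VLDLR at 0.85 and ANKRD37 at 0.82, and AK4, a mitochondrial adenylate kinase, had the single fall of its list at -0.56.

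A 15-gene expression signature of tumour hypoxia, which includes ADM, NDRG1 and VEGFA, had 8 rises, 4 falls and 3 genes not called, with a median log2 fold change of 0.24, where 21.3% of all tested genes rose and 20.5% fell. Without the members, 6 of 12 rose and 4 fell, with a median of 0.20, and 7 of these 12 are also in the pathway lists. The 5 genes found in no other list were TUBB6, which rose by 0.48, MRPS17 and ACOT7, which had falls of -0.48 and -0.24, and MIF and CDKN3, which were not called.

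In the promoter windows of the target lists, ACGTG was present in 19 of 29 genes that rose (65.5%) and in 2 of 7 that fell (28.6%), against 26.9% of tested genes. Either core was present in 86.2% and 85.7%. These lists hold genes chosen as HIF targets, so their share with a core may differ from that of tested genes through the choice alone. Only 7 windows belong to genes that fell, and targets not called or without a window are left out. The part of the core in these changes was not tested. The window of EGLN1 with its ACGTG and that of BNIP3 with the palindrome, both printed above, belong to members that rose. ACGTG was also present in CA9, which was not called. GCGTG alone was present in HIF1A, which rose, in EPAS1, which fell, and in ADM, which was not called.

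Matches of 3′ UTRs to the seed of an siRNA, bases 2 to 8 of its guide, were counted because pairing of the seed can lower other transcripts. Both siRNAs against TRIM28 match TRIM28 transcripts in GENCODE v29. EPAS1, the member that fell, held no seed match to either in its longest annotated 3′ UTR of 2043 bases. For siTRIM28-2 a match was present in CA9 and BNIP3, neither of which fell, and in 18.1% of 11680 tested genes with a 3′ UTR. For siTRIM28-1 a match was present in ARNT, EGLN1, VEGFA and NDRG1, none of which fell, and in 15.4% of those genes. Of the 10 pathway genes that fell, 5 held a siTRIM28-2 match (EGLN2, PGAM1, CA12, LOXL2 and AK4), as did 7 of 37 pathway genes that rose. Over all tested genes with a 3′ UTR, 29.1% of those that fell held a siTRIM28-2 match, against 12.1% of those that rose. A siTRIM28-1 match was held by 3 of the 10 (PFKFB3, PGAM1 and CA12) and by 7 of 37 pathway genes that rose. Over all such genes, 16.5% of those that fell and 16.0% of those that rose held a siTRIM28-1 match. The part of these matches in the falls was not tested.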

How the data were processed

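RNA-seq was analysed from 6 T24 libraries, 3 siNC and 3 siTRIM28. The counts were deposited by the authors unnormalized, as reads for each gene of GRCh38, and the submitters' processing notes name fastp 0.23.1, STAR 2.7.6a and featureCounts. The annotation release, strand setting and treatment of duplicate reads are not given in the sources used here. The gene length in bases is another deposited column, whose values the authors' table gives without a stated definition. A second deposited table, of genes the authors chose as changed, holds none of the members and was not used.

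Library sizes were scaled by TMM. The quasi-likelihood test of edgeR 4.0.16 (R 4.3.3, no covariate) was run over genes that reached 10 counts in 3 or more libraries, with Benjamini-Hochberg adjustment over all 18474 genes and a threshold of 0.05. Standard errors were taken as the absolute log2 fold change over the root of the F statistic. Alternatives were other scalings, DESeq2 1.42.0, limma-voom 3.58.1, other filters, a replicate block, each library left out, close pairs summed and a threshold of 0.01. Fits were also run on simulated counts in which far fewer genes changed than were called here. That run does not show how the fits behave at the share of genes called in these data. Promoters are from RefSeq and UTRs from GENCODE v29. Python 3.11.15 and matplotlib 3.10.9 drew the figures.

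Named genes were the members, TRIM28, 13 pathway genes fixed by name, and up to 4 rises and 4 falls per list among called genes whose groups did not overlap and whose mean count reached 50. PGF, SPTSSA, ARHGEF39, the marker genes, the genes not called or not tested and the 5 signature genes were named after their values were seen. A gene that this rule names is not reported here. Members and lists were chosen with earlier results of these data known.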

Additional observations from a re-analysis of the deposited data

How the results depend on the processing

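The rises of BNIP3, NDRG1, VEGFA and EGLN1, the fall of EPAS1 and that of TRIM28 kept their direction and their call under all 15 alternatives run for each. The count of called members lay between 5 and 7 and that of called pathway genes between 46 and 51, and the count over all genes between 5393 and 8130. With the close pairs summed, 5935 genes were called, against 7723 in the main test. HIF1A was not past the threshold without siNC replicate 1 (0.16) and with the close pairs summed (0.16), and its value with each library left out lay between 0.16 and 0.22. CA9 passed without siTRIM28 replicate 1, and its left-out values lay between 0.34 and 0.58. ARNT, near 0, turned positive with upper-quartile scaling (0.0333), total counts (0.0181), limma-voom (2e-04) and summed pairs (0.0215), and ranged from -0.0438 to 0.0334 with a library left out. The median of the pathway genes was 0.43 with upper-quartile scaling, 0.41 with total counts, 0.41 with summed pairs, and 0.37 to 0.40 with a library left out.

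Genes that were not called also changed sign. CUL2 had 0.0195 with upper-quartile scaling and 0.0045 with total counts, INSIG2 0.0025 with upper-quartile scaling, and NRP2 -0.002 with summed pairs. With a library left out, CUL2 lay between -0.0539 and 0.0429, INSIG2 between -0.1719 and 0.0714, NRP1 between -0.1435 and 0.0036, NRP2 between -0.0354 and 0.0666 and ELOC between -0.0245 and 0.357. The cause was not tested.

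No pairing of the samples by replicate number was seen. The correlations of deviations from the group means were 0.07, -0.02 and 0.05 for numbers 1, 2 and 3 over 12828 genes. Those between unlike numbers ran from -0.07 to 0.05. With 3 libraries per group these values cannot exclude a pairing. With the number as a replicate block 7910 genes, the same 6 of the members and 49 pathway genes were called. CA9 and genes near 10 counts are limited by depth.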
